A study of Mus musculus with 4 samples.

Results

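The mitochondrial ribosomal protein genes were taken as every row of the deposited expression table whose symbol begins with Mrpl or Mrps followed by a digit. The rule found 80 of the 16442 rows. Of these, 77 are protein-coding genes, 48 with an Mrpl symbol (large subunit) and 29 with an Mrps symbol (small subunit), and 3 are processed pseudogenes. Poly(A) RNA had been sequenced from leukaemia stem cells, the bone marrow cells that can restart a leukaemia, of C57BL/6 mice with leukaemia. The groups were wild-type (WT) and Rreb1 knockout (KO), with 2 libraries each, called biological replicates by the submitters. Rreb1 encodes a transcription factor with zinc fingers, known for binding RAS-responsive elements. The sources used here do not give the age of the mice, the deleted part of Rreb1, the way the leukaemia was started, or whether a library came from 1 mouse or a pool. The genotype label of KO replicate 2 names Rreb2, and the extraction text names TAMs rather than leukaemia stem cells. Libraries were grouped by title, and KO and WT below stand for the libraries so labelled.

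Mitochondria keep their own ribosomes, which translate the few mRNAs of the mitochondrial genome into core subunits of the respiratory chain and the ATP synthase. The ribosomal RNAs come from the mitochondrial genome, whereas all the proteins are encoded in the nucleus, made in the cytosol and imported. The small subunit reads the mRNA and the large subunit forms the peptide bonds. Part of the proteins have bacterial homologues and the others arose in mitochondria. Leukaemia cells have been reported to depend on this translation. The symbols do not follow the structure in every case. Mrps30 and Mrps18a lie in the large subunit of solved mitochondrial ribosomes, and Mrps36 belongs to the 2-oxoglutarate dehydrogenase complex. The series concerns translation of respiratory proteins encoded in the nucleus and succinate metabolism in acute myeloid leukaemia. The comparison here asks whether mRNA levels of the mitochondrial translation machinery differed between KO and WT.

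Depth was 16590830 to 18451251 assigned reads per library. Rreb1 was at 5.24 and 6.57 FPKM (fragments per kilobase of exon, corrected for library depth) in WT and at 6.10 and 6.93 in KO (log2 difference 0.13, adjusted p = 0.616), so the mRNA level did not separate the genotypes. Since the deleted part of Rreb1 is not given, whether the deletion should change this value cannot be told. Of the 11768 genes tested (those averaging 1 FPKM or more), 71 rose and 48 fell in KO, 1.01% of those tested (limma, Benjamini-Hochberg adjusted p below 0.05). All 10 leukaemia and progenitor markers were present, and 0 passed by limma, with 7 above 0 and 3 below. The smallest p values belonged to Kit (log2 difference 0.74, adjusted p = 0.051), Mpo (−0.97, adjusted p = 0.053) and Cd34 (−0.47, adjusted p = 0.065), and limma-voom called Kit higher and Mpo, Cd34 and Flt3 lower. Markers of other marrow cells also differed between the groups. In the neutrophil list 7 of 10 genes rose, and its summed level was 1266 to 1292 FPKM in WT and 2927 to 3511 in KO. The other 3, Cxcr2, Ltf and Mmp8, had log2 differences of −0.106, −0.055 and −0.041 (adjusted p = 0.680, 0.915 and 0.921). Of 7 tested erythroid genes 5 rose, with sums of 88.9 to 108 and 422 to 515 FPKM, most of them from globins, and the other 2, Car1 and Klf1, had log2 differences of −2.67 and −0.72 (adjusted p = 0.053 and 0.207). Of 9 tested macrophage genes 4 fell (655 to 695 and 504 to 527 FPKM), and so did 3 of 5 tested B cell genes (216 to 225 and 120 to 137 FPKM). Of the remaining B cell genes, Cd79b was lower (log2 difference −0.47, adjusted p = 0.081). Cd79a lay the other way, at 1.79 and 1.82 FPKM in WT and 3.09 and 3.71 in KO (log2 difference 0.65, adjusted p = 0.101). In the T and NK cell list 0 of 5 tested genes passed by limma. There, 3 were lower at an unadjusted p below 0.05 (Gzma, Trbc2 and Cd3d), beside 9.35% of all tested genes, and Gzma fell by limma-voom. Nkg7 lay the other way, at 282 and 341 FPKM in WT and 426 and 356 in KO (log2 difference 0.33, adjusted p = 0.264). It made up most of the sum of this list, which was 301 to 364 FPKM in WT and 367 to 436 in KO. No marker in the table was at 0 in every library, though some, among them Cd3e, Cd8a and Epor, stayed under 1 FPKM. In bulk RNA, fewer cells of a type and less RNA per cell cannot be told apart. The part that these cell types have in the values below was not tested.

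All 77 coding members were expressed. Each was at 5 FPKM or more in every library, from 167 to 5485 reads, and all passed the filter on level. Mean levels ran from 6.19 FPKM (Mrpl3) to 162 FPKM (Mrpl28). There were 8 genes at 100 FPKM or more, 58 between 10 and 100, and 11 under 10. The median was 30.5 FPKM over the large subunit and 24.6 over the small subunit. The 5 highest were Mrpl28, Mrpl18, Mrpl54, Mrps21 and Mrpl36. Mrpl28 was at 174 and 163 FPKM in WT and 170 and 143 in KO. Mrps21, a small-subunit protein with a bacterial homologue, was at 132 and 135 FPKM in WT and 146 and 156 in KO. The 5 lowest were Mrpl3, Mrpl47, Mrps6, Mrps31 and Mrpl13. Neighbours in this order often did not differ beyond their spread, as with Mrpl18 (154 ± 17.7 FPKM in WT, SD, n = 2) and Mrpl54 (153 ± 5.40).

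**Figure D1:**
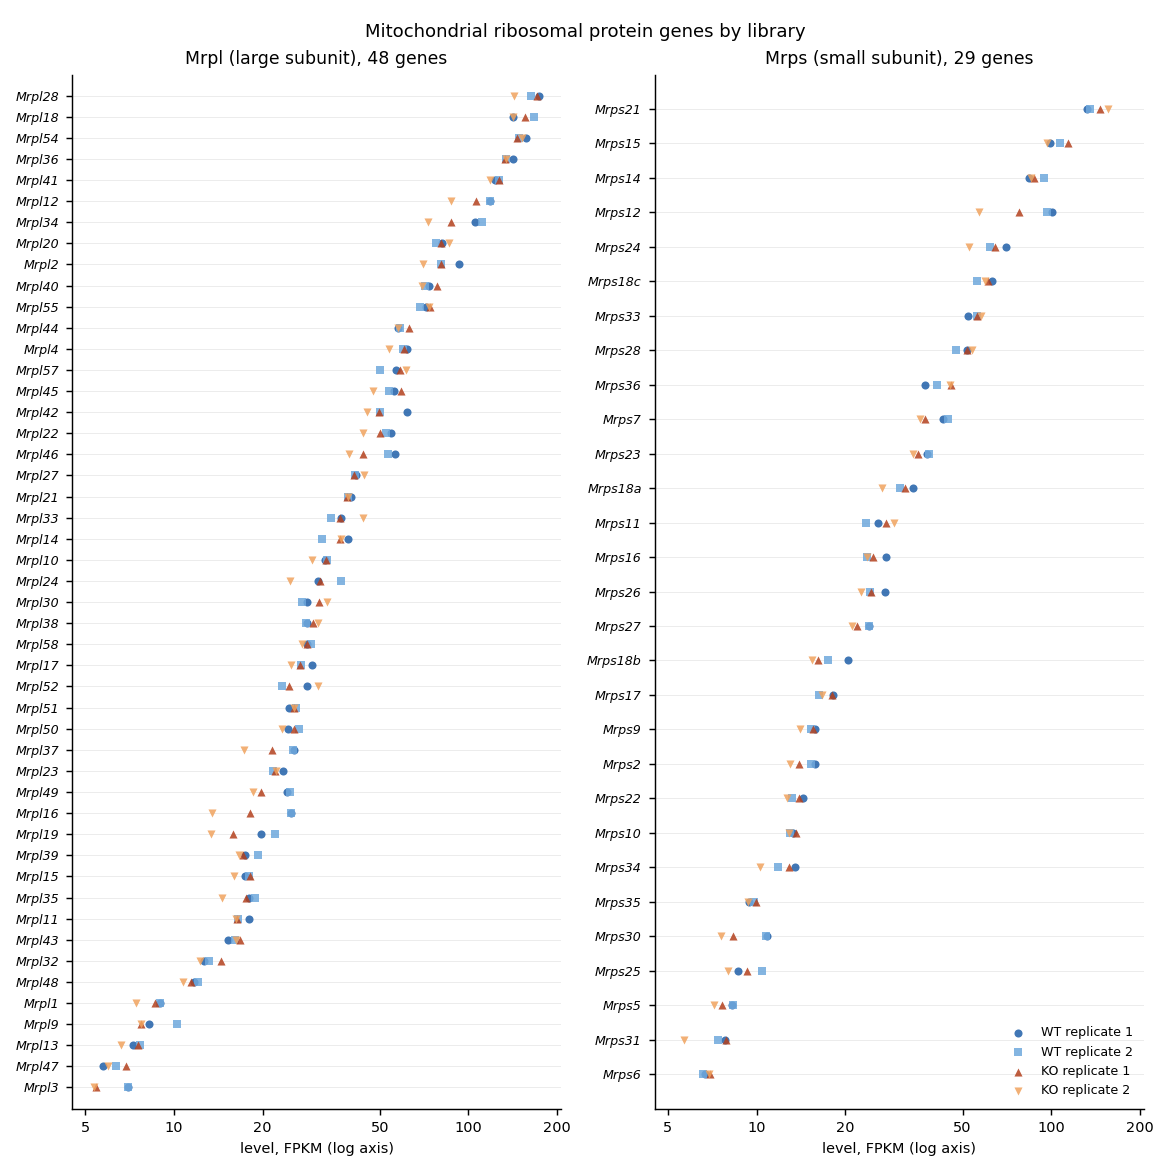
Level of each of the 77 coding genes in FPKM on a log axis, by subunit as named by symbol, with 1 point per library and genes ordered by their mean. The genes span 6.19 to 162 FPKM, and the points of a gene lie close together next to this range, with KO replicate 2 at the low end for 51 genes.

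The order depends on which gene length is used, because FPKM divides by all annotated exons of a gene. Across the 77 genes, mean FPKM was lower for genes with more exonic sequence (Spearman's rho −0.70, a description over genes of the same libraries). Per kilobase of the principal transcript the relation with that transcript's length was alike (rho −0.72), and the 2 measures of level ordered the genes similarly (rho 0.83), with a few genes that moved far. For 20 genes the union of exons is at least 2 times as long as the principal transcript. Mrpl33 has 7326 bases of annotated exon and a principal transcript of 478 bases. It was 31st by FPKM and 1st by reads per kilobase of the principal transcript, an alternative chosen after the data were seen. Mrpl42 moved from rank 23 to 2 and Mrpl23 from 49 to 10. The ratio of the FPKM of 1 gene between libraries does not depend on this length. Differences of log2(FPKM + 1) do somewhat, because a longer length lowers FPKM against the added 1.

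The 3 pseudogenes had few reads, at most 54 in a library. Mrpl23-ps1 was at 5.05 and 2.81 FPKM in WT and 2.53 and 3.95 in KO, and Mrps36-ps1 at 1.42 and 0.79 in WT and 1.77 and 0.96 in KO. These were the widest spreads within a group among the 80 members. Mrps36-ps2 did not reach a mean of 1 FPKM and was not tested. Reads from near-identical copies may have been shared between these rows and their parent genes, so the values of Mrps36 and Mrpl23 carry that uncertainty.

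Between KO and WT, 0 of the 77 coding genes passed the threshold in either direction, beside 1.01% of all tested genes. At an unadjusted p below 0.05 there were 11 members with lower values in KO (14.3%) and 1 with a higher value (1.3%). Over all tested genes these shares were 9.35% and 11.4%. By limma-voom on recovered read counts, an alternative test with more calls over all genes, 7 members fell (9.09%, beside 2.99% of all genes called lower and 7.4% called in either direction) and 0 rose. These 7 were Mrpl16, Mrpl19, Mrps12, Mrps30, Mrpl34, Mrpl37 and Mrpl46. The KO pair was entirely below the WT pair for 27 members (35.1%), beside 24.9% of all tested genes, and entirely above it for 10 (13%), beside 30.5%. The median log2 difference of the 77 genes was −0.068, against 0.025 over all tested genes. The 95% limits of a single gene reached 0.19 to 0.37 either side of its log2 difference, and for 63 members they lay within 0.5 of 0. The smallest p of a permutation test of 2 libraries against 2 is 0.333. Every smaller p therefore rests on the assumed distribution of the values and, in limma, also on the spread shared across genes.

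**Figure D2:**
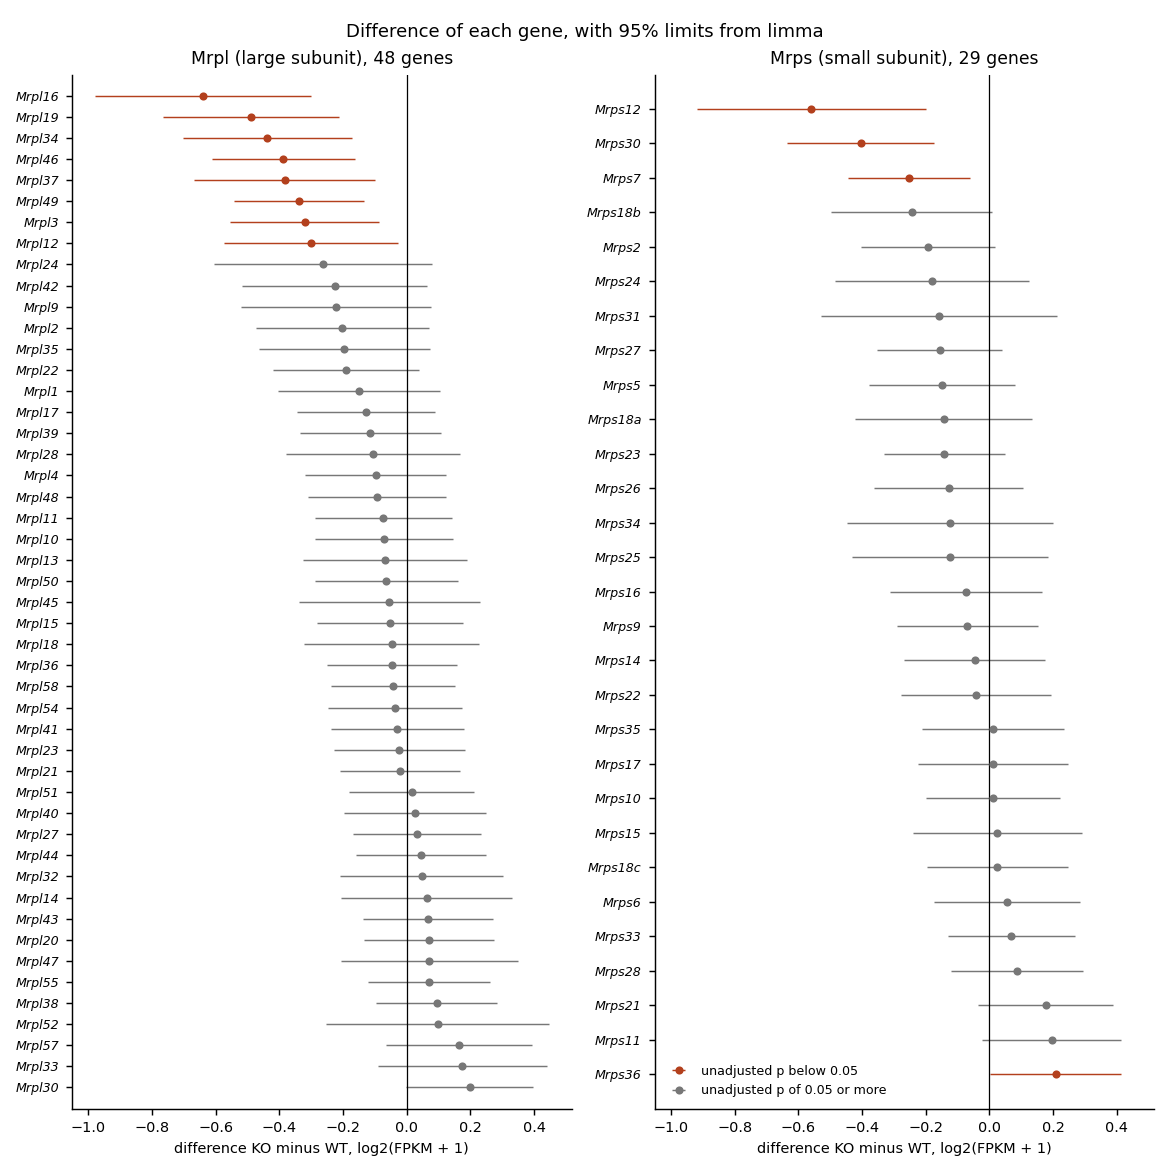
Difference of each of the 77 coding genes, KO minus WT, on the log2(FPKM + 1) scale, with 95% limits from limma and genes ordered within each subunit. The 12 genes at an unadjusted p below 0.05 are coloured, 11 below 0 and Mrps36 above 0, and none of them passed the adjusted threshold.

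The large and small subunits had similar medians. The median log2 difference was −0.060 over the 48 Mrpl genes and −0.074 over the 29 Mrps genes, and −0.066 and −0.072 when Mrps30 and Mrps18a were counted in the large subunit and Mrps36 was left out. Among Mrpl genes 33 were below 0 and 15 above, and among Mrps genes 18 were below and 11 above. The 11 members with lower values at an unadjusted p below 0.05 comprised 8 Mrpl genes and 3 Mrps genes, and 1 of those 3, Mrps30, is a large-subunit protein by structure. The summed level of the Mrpl genes was 2363 and 2323 FPKM in WT and 2276 and 2131 in KO, 94.1% of WT. For the Mrps genes it was 1074 and 1060 FPKM in WT and 1062 and 996 in KO, 96.4% of WT. The ratio of the sums, large to small, was 2.20 and 2.19 in WT and 2.14 in each KO library, so the groups did not overlap, by a small margin. The ratio of the medians gave another picture, with 1.17 and 1.28 in WT and 1.28 and 1.36 in KO. A sum follows the few highest genes and a median does not. No test of the difference between subunits was made.

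The KO libraries did not contribute equally. Relative to the WT mean, the median member was at −0.014 on the log2 scale in KO replicate 1 and at −0.13 in KO replicate 2. KO replicate 2 was the lowest of the 4 libraries for 51 of 77 members and lay below KO replicate 1 for 60. The same library was the highest for 11 members. With KO replicate 2 left out the median of the 77 was −0.014, and with KO replicate 1 left out it was −0.13. These equal the library medians by construction, since the difference is then the remaining KO library minus the WT mean. Over all tested genes the corresponding library medians were 0.022 and 0.025.

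Among proteins of the peptidyl transferase centre, where peptide bonds are formed, Mrpl16 stood lowest relative to WT. Mrpl16 (chromosome 19, 11770391 to 11774960, plus strand, GRCm38), the homologue of bacterial L16 near the site that receives the incoming tRNA, was at 25.0 and 24.9 FPKM in WT and 18.2 and 13.5 in KO. Both KO libraries were below both WT libraries, which were almost equal to each other. The log2 difference was −0.64 (95% limits −0.98 to −0.30, limma adjusted p = 0.106; limma-voom adjusted p = 0.0074), the most negative of the 77. Mrpl3 (chromosome 9, 105053239 to 105079888, plus strand), whose bacterial counterpart reaches towards the same centre, was at 6.98 and 6.99 FPKM in WT and 5.44 and 5.36 in KO. Its replicates were nearly identical in both groups, and its log2 difference was −0.32 (adjusted p = 0.165). Mrpl2, a further protein next to the catalytic RNA, was at 92.8 and 80.8 FPKM in WT and 80.7 and 70.0 in KO, where the groups nearly touch. Mrpl27 was level, at 41.7 and 41.2 FPKM in WT and 40.8 and 44.2 in KO. The sum over the 5 genes listed for this centre was 88.6% of WT.

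In the small subunit, Mrps12 showed the widest difference. It encodes the homologue of bacterial S12, a protein of the decoding centre where codon and anticodon are matched. Mrps12 (chromosome 7, 28739641 to 28741820, minus strand) was at 100 and 96.5 FPKM in WT and 77.5 and 57.0 in KO. The WT values lay close together, and the gap between the KO libraries was, on the log2 scale, the widest within a group among the coding members. The log2 difference was −0.56 (95% limits −0.92 to −0.20, adjusted p = 0.139; limma-voom adjusted p = 0.018). Of the other proteins along the mRNA path, Mrps2 was at 15.7 and 15.3 FPKM in WT and 13.9 and 13.0 in KO, and Mrps5 at 8.27 and 8.34 in WT and 7.63 and 7.15 in KO. Mrps24 overlapped between the groups, at 70.5 and 61.8 FPKM in WT and 64.5 and 52.4 in KO. The summed level of these 4 genes was 77.8% of WT, and most of this came from Mrps12. Mrps7, a protein of the small subunit's head, was at 42.9 and 44.5 FPKM in WT and 37.2 and 35.9 in KO, without overlap (log2 difference −0.25, adjusted p = 0.174). Of its exonic bases 11.87% are shared with Gga3 and Mif4gd on the other strand.

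The stalk of the large subunit recruits translation factors, and Mrpl12 forms its flexible arms. Mrpl12 (chromosome 11, 120484613 to 120489065, plus strand) was at 119 and 118 FPKM in WT and 106 and 87.0 in KO (log2 difference −0.30, adjusted p = 0.211). Of the exonic bases of Mrpl12, 13.05% are shared with a gene model on the other strand. The groups did not overlap, and KO replicate 2 was the lower of the KO pair. Its partners at the base of the stalk had smaller differences, −0.07 for Mrpl10 and −0.07 for Mrpl11, with adjusted p = 0.674 and 0.664. Around the exit tunnel and its membrane anchor 0 of 6 genes had an unadjusted p below 0.05, while 5 of the 6 were below 0 and their sum was 91.6% of WT. Mrpl45, which holds the ribosome to the inner membrane, was at 55.9 and 53.9 FPKM in WT and 58.8 and 47.4 in KO, so the KO libraries lay on either side of the WT pair.

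The central protuberance, which contacts the tRNAs from the top of the large subunit, held 1 gene with an unadjusted p below 0.05. Mrpl46 (chromosome 7, 78775236 to 78783531, minus strand), a mitochondria-specific protein of this region, was at 56.3 and 53.1 FPKM in WT and 44.0 and 39.2 in KO. Its KO values were about 76.1% of WT (log2 difference −0.39, adjusted p = 0.118; limma-voom adjusted p = 0.041). The protuberance protein Mrpl38 lay the other way, at 28.4 and 28.2 FPKM in WT and 29.8 and 30.8 in KO (log2 difference 0.09, adjusted p = 0.517). Mrpl18, among the highest of all members, overlapped between the groups at 142 and 166 FPKM in WT and 156 and 142 in KO.

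Other proteins of the large subunit with lower values were Mrpl19, Mrpl34, Mrpl37, Mrpl49 and Mrps30. Mrpl19 (chromosome 6, 81957851 to 81965958, minus strand), a homologue of bacterial L19 at the face between the subunits, was at 19.7 and 22.0 FPKM in WT and 15.9 and 13.3 in KO. Its log2 difference was −0.49 (adjusted p = 0.115; limma-voom adjusted p = 0.014). Of its exonic bases 36% are shared with Gcfc2 on the other strand, and the labels do not mention strand marking, so part of its reads may belong to that gene. Mrpl34 (chromosome 8, 71464959 to 71465747, plus strand), a small RNA-binding protein with a bacterial homologue, was at 105 and 112 FPKM in WT and 87.0 and 72.9 in KO (log2 difference −0.44, adjusted p = 0.127). Here the groups were far apart relative to the WT pair. Mrpl37, specific to mitochondria, was at 25.7 and 25.4 FPKM in WT and 21.6 and 17.3 in KO (log2 difference −0.38, adjusted p = 0.168). Mrpl49, another mitochondria-specific protein, was at 24.2 and 24.9 FPKM in WT and 19.8 and 18.5 in KO (log2 difference −0.34, adjusted p = 0.124). Mrps30 (chromosome 13, 118378381 to 118387252, minus strand) was at 10.9 and 10.8 FPKM in WT and 8.31 and 7.55 in KO. In each of these 5 genes the groups did not overlap, and KO lay entirely below WT in 24.9% of all tested genes. The 5 were chosen by their p in the same libraries, so this is no separate support. The log2 difference of Mrps30 was −0.40 (adjusted p = 0.116; limma-voom adjusted p = 0.024), and 9.35% of its exonic bases overlap a gene on the other strand that is not in the table.

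Of the 77 coding members, Mrps36 alone was higher in KO at an unadjusted p below 0.05. It was at 37.4 and 41.1 FPKM in WT and 45.6 and 45.3 in KO (log2 difference 0.21, 95% limits 0.001 to 0.41, unadjusted p = 0.0492, adjusted p = 0.24). As stated above, its protein is a component of the 2-oxoglutarate dehydrogenase complex of the citric acid cycle. Its unadjusted p was below 0.05 in only 3 of the 11 settings of the analysis. Mrpl30 came next, at 28.4 and 27.2 FPKM in WT and 31.1 and 33.0 in KO (log2 difference 0.20, adjusted p = 0.243), and Mrps11 was at 25.9 and 23.5 in WT and 27.5 and 29.3 in KO. In both genes the groups did not overlap, and KO lay entirely above WT in 30.5% of all tested genes.

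Members with a second role or a close relative were examined whatever their values. Mrpl44, with a ribonuclease III-like domain, was at 57.7 and 58.6 FPKM in WT and 62.6 and 57.6 in KO (log2 difference 0.05, 95% limits −0.16 to 0.25). Mrpl58, a peptidyl-tRNA hydrolase that rescues stalled ribosomes and also sits in the large subunit, was at 28.2 and 29.1 FPKM in WT and 28.4 and 27.2 in KO (log2 difference −0.04, 95% limits −0.24 to 0.15). These limits leave room for a change of up to about 0.25 on the log2 scale. In all, 3 paralogues share the S18 fold, and each ribosome holds several of them at different places. Mrps18a was at 33.9 and 30.7 FPKM in WT and 32.0 and 26.5 in KO (log2 difference −0.14), and Mrps18c at 62.9 and 56.0 in WT and 61.3 and 59.5 in KO (log2 difference 0.03). Mrps18b was lower in both KO libraries, at 16.2 and 15.4 FPKM against 20.5 and 17.4 (log2 difference −0.24, adjusted p = 0.253). Of the exonic bases of Mrps18b, 30.5% overlap a gene model on the other strand.

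Grouping by origin did not separate the genes either. The 46 members with a bacterial homologue had a median log2 difference of −0.07, with 7 at an unadjusted p below 0.05, all lower. The 30 mitochondria-specific members had a median of −0.08, with 4 lower and 0 higher. Over all tested genes 9.35% were lower and 11.4% higher at that p. Within the small subunit the median was −0.018 for bacterial homologues (8 above 0 and 8 below) and −0.126 for mitochondria-specific genes (2 above and 8 below). Within the large subunit, by structure, the order was the other way, at −0.072 and −0.049. No test between these groups was made. The assignment to homologues and places in the ribosome was made from general knowledge, with Mrps36 left out.

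Many mitochondrial ribosomal genes lie head to head with another gene, so that the start sites of both are close together. In GENCODE M21, 33 of the 77 coding members (42.9%) had a neighbour on the other strand starting within 1000 bases, against 17.1% of the 11502 coding genes of the table that were examined. The members counted include some whose annotated transcripts overlap those of the neighbour at the start, by 29 to 891 bases. Both genes were tested in 26 pairs. Of these pairs 13 had differences of the same sign, 9 with both genes below 0 and 4 with both above. The median log2 difference was −0.05 over the members and −0.01 over their partners, of which 0 were called. At an unadjusted p below 0.05, 3 of the 26 partners had higher and 1 had lower values. Over all tested genes these shares were 11.4% higher and 9.35% lower. Of the 11 members with lower values at an unadjusted p below 0.05, 5 were in such a tested pair.

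**Figure D3:**
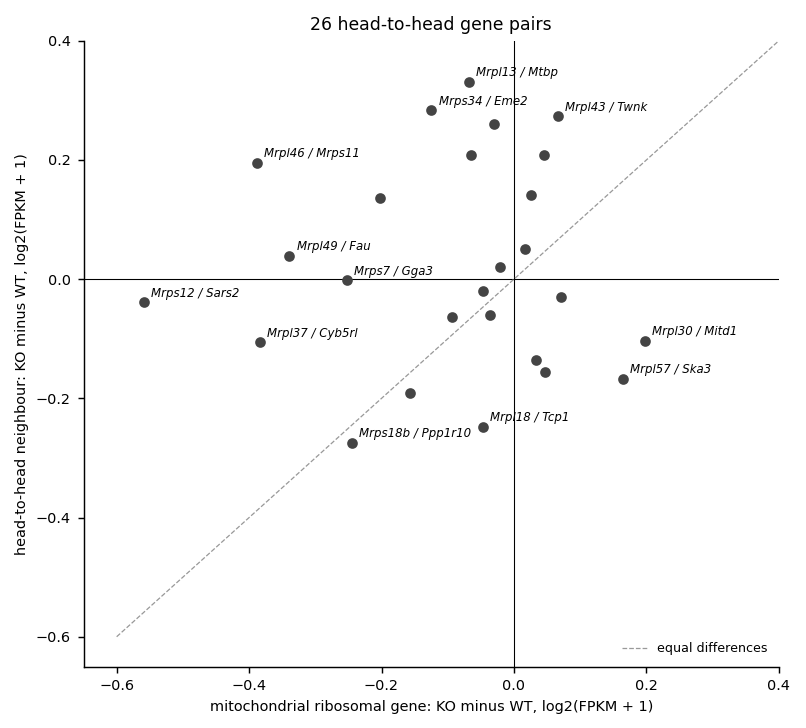
Log2 difference KO minus WT of each member (horizontal axis) and of its head-to-head neighbour (vertical axis) for 26 pairs, with the dashed line marking equal differences. The 5 members furthest to the left (Mrps12 to Mrps7, −0.56 to −0.25) have neighbours between −0.11 and 0.20, and 13 of the 26 pairs lie in the quadrants of equal sign.

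The pair Mrpl46 and Mrps11 joins a large-subunit and a small-subunit gene. Their RefSeq start sites are 41 bases apart, and their exons overlap by 173 bases on opposite strands, 12.2% of Mrpl46 and 7.97% of Mrps11. Mrpl46 was lower in both KO libraries and Mrps11 higher in both. The log2 ratio of Mrpl46 to Mrps11 was 1.09 and 1.14 in WT and 0.66 and 0.41 in KO. Mrps12 stands next to Sars2, which encodes the mitochondrial seryl-tRNA synthetase. Sars2 was at 13.6 and 13.1 FPKM in WT and 13.9 and 12.2 in KO, and the log2 ratio of Mrps12 to it was 2.79 in each WT library and 2.40 and 2.14 in KO. Mrpl49 stands next to Fau, the source of a cytosolic ribosomal protein, which was at 357 and 380 FPKM in WT and 363 and 396 in KO. The log2 ratio of Mrpl49 to Fau was −3.83 and −3.88 in WT and −4.13 and −4.35 in KO. Mrpl37 stands next to Cyb5rl, at 1.68 and 1.57 FPKM in WT and 1.51 and 1.37 in KO. The log2 ratio of Mrpl37 to Cyb5rl was 3.31 and 3.36 in WT and 3.17 and 2.95 in KO. The fifth such pair, Mrps7 with Gga3, had 2.18 and 2.15 in WT and 1.97 and 1.86 in KO. These pairs were chosen for a lower member, which fixes the direction of their ratios. Over all 26 pairs the ratio was lower in KO in 17 and higher in 9. The ratios were computed on log2(FPKM + 1), and no test was made within pairs.

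The stretches between the start sites of 4 of these pairs are shown because 1 gene of each pair was among the lower members while its neighbour was not. Between Mrps7 and Gga3 annotated exons leave no free stretch. Each is read on the strand of the mitochondrial ribosomal gene, from RefSeq (GRCm38.p6), and is limited to bases outside annotated exons. Capitals mark the letters CCAAT or, on the other strand, ATTGG, a motif chosen after the letters had been seen.
Mrps12 to Sars2, chr7:28741822-28741967, minus strand: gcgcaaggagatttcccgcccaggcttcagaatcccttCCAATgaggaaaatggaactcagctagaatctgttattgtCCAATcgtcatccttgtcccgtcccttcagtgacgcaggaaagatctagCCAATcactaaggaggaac
Mrpl37 to Cyb5rl, chr4:107066869-107066987, minus strand: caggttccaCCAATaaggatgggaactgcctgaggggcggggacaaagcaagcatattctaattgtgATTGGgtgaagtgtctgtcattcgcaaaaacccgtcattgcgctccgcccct
Mrpl49 to Fau, chr19:6057786-6057843, minus strand: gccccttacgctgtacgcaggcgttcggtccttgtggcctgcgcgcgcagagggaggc
Mrpl46 to Mrps11, chr7:78783090-78783118, minus strand: gcccctcgccggcccgcgttgcctcatgg
The stretch at Mrps12 is 146 bases long and holds CCAAT 3 times in the direction of Mrps12. The stretch at Mrpl37 holds it once in each direction. The shorter stretches at Mrpl49 (58 bases, 70.7% G or C) and Mrpl46 (29 bases, 79.3% G or C) hold none.

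Promoter windows of 250 bases before to 50 bases after the start were available from RefSeq (GRCm38.p6) for 68 of the 77 coding members, with 74 windows in all because Mrpl2, Mrpl48 and Mrps16 have several. Motifs were counted as exact letters on both strands, and a gene was counted where any of its windows held the letters. The ETS motif CCGGAAG, bound by GABP among others, was in 25 of the 68 genes (36.8%), against 1925 of 9165 other coding genes of the table (21%). By window it was in 33.8% of the 74, against 8.86% of all 32851 windows in the reference. The YY1 motif AAGATGGC was in 12 genes (17.6%), against 5.44% of the other coding genes, and in 16.2% of the members' windows, against 2.75% of all windows. The NRF1 motif GCGCATGC was in 8 genes (11.8%), against 6.11%, and in 10.8% of the members' windows, against 2.71%. GABP, YY1 and NRF1 are known regulators of nuclear genes for mitochondria. The letters CCAAACCAC, a core of the reported RREB1 motif, were in 0 of the 68 genes, against 0.371% of the other coding genes. CCAAT was in 26 genes (38.2%), against 43.5%, and in 39.2% of the members' windows, against 37.4%. Mrps12 had the letters of ETS, YY1 and CCAAT, and Mrpl16, Mrpl12 and Mrpl46 had none of the 5 motifs. A window that holds these letters is not thereby a bound site.

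Genes that work with the mitochondrial ribosome were examined as whole lists. Of 5 tested subunits that carry other names, 0 passed by limma or limma-voom and all 5 were below 0. Ptcd3, a small-subunit protein, was at 9.92 and 9.78 FPKM in WT and 8.11 and 7.72 in KO (log2 difference −0.28, adjusted p = 0.18). Gadd45gip1, a large-subunit protein, was at 15.5 and 18.0 FPKM in WT and 14.4 and 13.2 in KO (adjusted p = 0.239). Of 24 assembly and rRNA modification genes 0 passed by limma or limma-voom, with a median of −0.05. The lowest p in that list belonged to Noa1, a GTPase for small-subunit assembly, at 9.99 and 11.4 FPKM in WT and 8.34 and 7.20 in KO (adjusted p = 0.147). Fastkd2, an RNA-binding protein for large-subunit assembly, was at 5.20 and 4.79 FPKM in WT and 3.44 and 3.95 in KO (adjusted p = 0.188).

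Of 15 tested translation factors of mitochondria 0 passed the threshold by limma. The log2 difference was below 0 for 14 of them, the median was −0.10, and the sum was 83.3% of WT. By limma-voom 2 of them fell, beside 2.99% of all genes called lower. Tsfm, the factor that recharges the mitochondrial elongation factor Tu, was at 23.3 and 23.5 FPKM in WT and 16.4 and 15.2 in KO (log2 difference −0.54, limma adjusted p = 0.055). Tufm, the elongation factor Tu itself, was at 34.7 and 38.3 FPKM in WT and 28.7 and 26.1 in KO (log2 difference −0.40, adjusted p = 0.116). Taco1, which promotes translation of the mRNA of cytochrome c oxidase subunit I, was at 7.05 and 6.45 FPKM in WT and 5.22 and 5.35 in KO (adjusted p = 0.193). In all 3 genes both KO libraries were below both WT libraries. They were named for the smallest p of the list, in which 8 of the 15 tested genes were separated in this way, beside 24.9% of all tested genes.

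Among 19 tested mitochondrial aminoacyl-tRNA synthetases, the enzymes that load tRNAs, 0 passed the threshold by limma, and the median was −0.04. By limma-voom Yars2 fell (adjusted p = 0.026) and Lars2 rose (adjusted p = 0.0091), beside 7.4% of all genes called in either direction. Yars2 was at 12.7 and 10.6 FPKM in WT and 7.78 and 7.96 in KO (log2 difference −0.51, adjusted p = 0.106). Lars2 lay the other way, at 45.5 and 69.4 FPKM in WT and 85.8 and 138 in KO (log2 difference 0.94, adjusted p = 0.157), with a wide spread within both groups. Of 11 tested regulators of nuclear genes for mitochondria 0 passed by limma, and Yy1 was called higher by limma-voom (adjusted p = 0.037). Yy1 was at 4.06 and 4.62 FPKM in WT and 5.56 and 8.89 in KO (adjusted p = 0.192), and Esrra, a nuclear receptor gene, at 2.59 and 2.65 in WT and 3.11 and 4.56 in KO (adjusted p = 0.251). Myc, which drives ribosome production, was at 170 and 171 FPKM in WT and 156 and 132 in KO (adjusted p = 0.257).

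**Figure D4:**
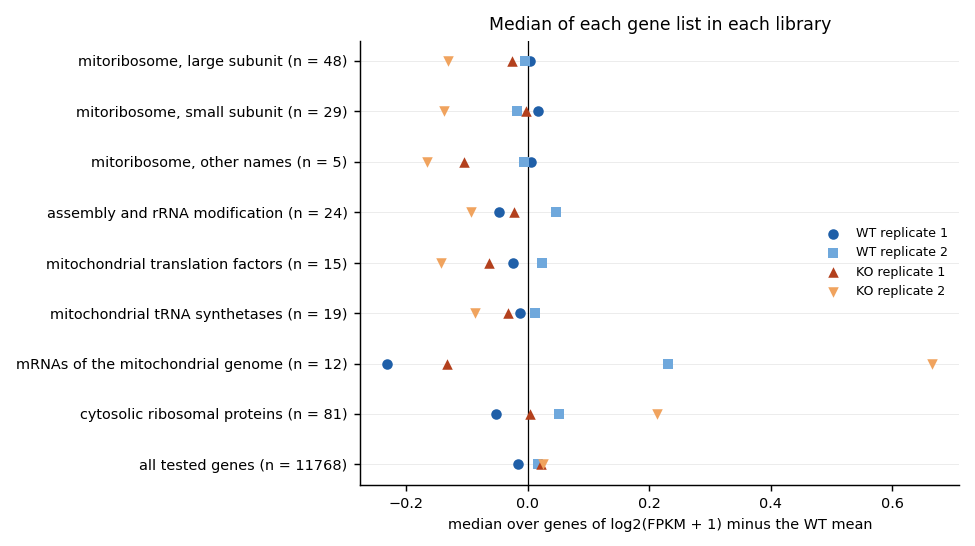
Median over the tested genes of each list of the log2(FPKM + 1) level minus the WT mean, with 1 point per library (n is the number of genes). KO replicate 2 lies lowest for both subunits of the mitochondrial ribosome (−0.13 and −0.14) and highest for cytosolic ribosomal proteins (0.21) and mRNAs of the mitochondrial genome (0.67).

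The templates of these ribosomes and the ribosomal proteins of the cytosol were set beside the members, with no test between lists. Of 12 tested mRNAs of the mitochondrial genome 0 passed by limma or limma-voom, 10 were above 0, and the median log2 difference was 0.27. Their level varied most between replicates, with list medians relative to the WT mean of −0.23 and 0.23 in WT and of −0.13 and 0.67 in KO. The largest contributor, mt-Nd1, a complex I subunit, was at 3354 and 4879 FPKM in WT and 3736 and 6367 in KO and was named after its values were seen. The value of mt-Atp8 was 193 FPKM in WT replicate 1 and 2.66 to 7.19 in the others. Of 81 tested cytosolic ribosomal proteins 0 passed by limma. By limma-voom 3 were called higher (Rpl31, Rpl28 and Rpl36), beside 501 of the 11365 genes tested that way. Of the 81, 57 were above 0, and the median was 0.10. In KO replicate 2 their median stood at 0.21 above the WT mean, and that of the 77 mitochondrial members at −0.13, while in KO replicate 1 the values were 0.004 and −0.014. The summed level of all members was 3437 and 3383 FPKM in WT and 3338 and 3127 in KO, against 16750 and 17659 and then 17196 and 19650 for the cytosolic list. Whether the neutrophil, erythroid, macrophage and B cell markers given above have a part in these values was not tested.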

How the data were processed

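Leukaemia stem cell mRNA of 2 WT and 2 KO libraries was analysed. Per the labels' protocols, mRNA was selected with oligo-dT and copied from random primers. The submitters' processing notes name the GRCm38 build and the tools HISAT2 2.1.0, featureCounts, DESeq2 and CASAVA, without their roles. The authors deposited 1 table whose values were read as FPKM plus 1, since the lowest value was exactly 1 in each library. This unit was inferred from the values, and 1 was subtracted. With exonic lengths from GENCODE M21, to which 16003 symbols (97.3%) were matched, FPKM of genes with 30 reads or fewer gave whole reads within 0.05 in 99.0% to 99.2% of cases, and reads were recovered for 15776 genes. A level of 3 reads on 2 kb of exon corresponds to 0.081 to 0.090 FPKM, for counting error only. Of the 16442 genes, 236 were at 0 throughout.

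Differences were tested with limma 3.58.1 (R 4.3.3, trend, group as the only term, two-sided) on log2(FPKM + 1) for genes averaging 1 FPKM or more. P-values were adjusted by Benjamini-Hochberg over all genes tested (threshold 0.05). There were 2 residual and 4.10 prior degrees of freedom. Differences on this scale understate changes of low genes. The labels call the replicates biological but do not say that they came from separate mice, so the p-values measure the spread between these libraries. The procedure was tested on simulated data. Sequences and starts came from RefSeq (GRCm38.p6).

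The members, the gene lists and the marker lists were chosen with earlier results of these data known. Members named were those at an unadjusted p below 0.05 or called by limma-voom, the 5 highest, the 5 lowest, the 3 with the widest spread within a group and 10 genes named whatever their values. From each other list up to 3 genes with the smallest p were named. Of these, 1 gene is not reported here. Fau, Sars2, Cyb5rl, Gga3, Car1, Klf1, Flt3, Cxcr2, Ltf, Mmp8, Cd79a, Cd79b, Nkg7, Rpl28, Rpl36, mt-Nd1, mt-Atp8 and members given as comparison were named after their values were seen. Mrpl53 was not analysed here. Alternatives were another pseudocount (0.1), no filter, a mean of at least 5 FPKM, median-ratio scaling, a replicate block, limma-voom, and each library left out.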

Additional observations from a re-analysis of the deposited data

How the results depend on the processing

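Over all genes, 71 were called higher and 48 lower. The counts were 22 and 10 without the filter on level, 108 and 82 at a mean of at least 5 FPKM, and 501 and 340 by limma-voom. With 1 library left out, 4 to 50 were called higher and 2 to 14 lower, from fewer samples. Among coding members 0 were called in either direction under every setting except limma-voom, which called 7 lower. At an unadjusted p below 0.05, 7 to 15 members were lower with 1 library left out, the 7 without KO replicate 2 and the 15 without KO replicate 1. The higher count of 1 was 2 without the filter and 0 with pseudocount 0.1, at 5 FPKM, with median-ratio scaling and by limma-voom, and 0 to 1 with 1 library left out. With 1 library left out the median log2 difference ran from −0.133 to −0.014 over all coding members, from −0.130 to −0.026 over the large subunit and from −0.137 to −0.0033 over the small subunit, the first value of each without KO replicate 1 and the second without KO replicate 2. No median changed sign in these settings.

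Same-numbered libraries showed no shared deviation (r = 0.009 over 11768 genes). This r only sets the difference between the WT replicates against that between the KO replicates. It therefore cannot decide whether same-numbered samples were paired. With the replicate block 40 and 26 genes were called over all genes, and among members 0 were called, with 13 lower and 0 higher at an unadjusted p below 0.05.

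All 11 members with lower values kept their sign in every setting. In each of them both KO libraries were below both WT libraries, so leaving 1 library out could not change the sign. In the settings that keep all 4 libraries their unadjusted p stayed below 0.05. They had been chosen by that p in the same libraries, so this is no independent check. Of 29 named genes 10 changed sign in some setting, in each case with 1 library left out. A sign can change in this way only where the KO and WT values overlap, as they did for all 10. The range with 1 library left out was −0.23 to 0.019 for Mrpl28, −0.16 to 0.069 for Mrpl18 (0.021 without KO replicate 2), −0.014 to 0.16 for Mrpl47, −0.36 to 0.049 for Mrps31 and −0.15 to 0.015 for Mrpl13. It was −0.21 to 0.098 for Mrpl45, −0.014 to 0.10 for Mrpl44, −0.057 to 0.11 for Mrps18c, −0.086 to 0.42 for Mrps36-ps1 (−0.052 without WT replicate 2) and −0.53 to 0.13 for Mrpl23-ps1 (0.044 without KO replicate 1). Depth limits the pseudogenes most, at 54 reads or fewer in a library.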
